A study of Mus musculus with 24 samples.

Results

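Bone marrow macrophages of mice whose myeloid cells carry a Smad3 deletion (MyS3KO) were set against macrophages of floxed mice without the deletion (Smad3fl/fl), both after exposure to TGF-β1. The comparison used 6 of the 24 RNA-seq libraries of the study, taken by their labels: 3 Smad3fl/fl and 3 MyS3KO libraries. MyS3KO mice are Smad3fl/fl mice that also carry LyzMCre, in which the Cre recombinase is driven from the lysozyme M gene (Lyz2) of myeloid cells, so the Smad3fl/fl controls lack Cre altogether. All mice were C57BL/6 and 2 to 3 months old. Marrow from the tibia was differentiated with CSF-1, the macrophages were kept without serum for about 16 hours, and TGF-β1 was given at 10 ng/ml for 4 hours. The remaining libraries hold the untreated Smad3fl/fl and MyS3KO cells, and Smad2fl/fl and MyS2KO cells (Smad2fl/fl with LyzMCre) with and without TGF-β1, 3 libraries each. The labels do not say whether libraries of a group came from separate mice or separate cultures, so p-values measure the spread between libraries, which may be technical. In such bulk libraries fewer cells of a kind and less RNA per cell cannot be told apart.

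TGF-β1 binds a pair of receptor kinases that phosphorylate SMAD2 and SMAD3. Each joins SMAD4 and enters the nucleus, where SMAD3 binds DNA directly at short CAGAC boxes while the common form of SMAD2 does not. In macrophages the pathway is known for restraining inflammatory genes and for supporting the uptake of dying cells and tissue repair.

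Among the genes that differed between MyS3KO and Smad3fl/fl macrophages, those of the lysosome formed one of the broadest groups, and several carry in their promoters the core of the CLEAR element, TCACGTG, the motif bound by the lysosomal regulators TFEB and TFE3. The 250 bases before the annotated start of 3 such genes and of the collagenase gene Mmp13, which was lower in MyS3KO, are shown from RefSeq (build GRCm38.p6, gene strand, 5′ to 3′), with the CLEAR core in capitals in the first 3 and an AP-1 motif, TGANTCA, in capitals in Mmp13. Glb1 lies at chr9:114400828-114401077 (plus strand), Ctsd at chr7:142387828-142388077 (minus strand), Lamp1 at chr8:13158911-13159160 (plus strand) and Mmp13 at chr9:7272264-7272513 (plus strand).
Glb1: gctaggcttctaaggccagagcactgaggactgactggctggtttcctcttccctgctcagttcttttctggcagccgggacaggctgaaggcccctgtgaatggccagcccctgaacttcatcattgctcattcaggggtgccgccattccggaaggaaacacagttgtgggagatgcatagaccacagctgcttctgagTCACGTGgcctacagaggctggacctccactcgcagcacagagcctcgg
Ctsd: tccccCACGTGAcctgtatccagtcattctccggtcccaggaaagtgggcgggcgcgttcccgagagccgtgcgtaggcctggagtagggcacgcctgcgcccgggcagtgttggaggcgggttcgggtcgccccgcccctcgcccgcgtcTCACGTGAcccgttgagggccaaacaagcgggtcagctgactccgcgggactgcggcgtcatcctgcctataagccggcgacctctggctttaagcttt
Lamp1: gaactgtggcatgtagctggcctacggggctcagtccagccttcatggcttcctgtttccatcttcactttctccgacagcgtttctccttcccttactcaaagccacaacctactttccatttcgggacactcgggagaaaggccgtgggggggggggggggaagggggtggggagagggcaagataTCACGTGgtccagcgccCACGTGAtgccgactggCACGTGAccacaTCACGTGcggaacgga
Mmp13: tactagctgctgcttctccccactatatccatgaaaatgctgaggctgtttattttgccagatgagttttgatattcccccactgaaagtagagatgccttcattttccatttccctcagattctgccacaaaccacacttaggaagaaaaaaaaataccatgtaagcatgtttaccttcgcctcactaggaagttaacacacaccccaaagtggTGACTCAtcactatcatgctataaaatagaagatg
The Glb1 promoter holds the core once, 49 bases before the start. Ctsd holds it at 2 places, and Lamp1 at 4 places within 62 bases of the start. Read on both strands over 300 bases (250 before to 50 after the start), the core was found in 6 of the 22 matched lysosomal genes called higher in MyS3KO (27.3%; Ctsa, Ctsd, Gaa, Gla, Glb1 and Lamp1), against 7.14% of the 9935 tested genes with a promoter in the table. The AP-1 letters, on both strands, were in 4 of the 6 matched protease genes called lower (Adam19, Mmp10, Mmp13 and Plaur), against 6.67% of tested genes, and in 5 of the 22 lysosomal genes (22.7%; Cd68, Glb1, Gpnmb, Neu1 and Psap). The SMAD box CAGAC, on both strands, was in 9 of the 22 lysosomal genes (40.9%), 3 of the 6 protease genes and 52.2% of tested genes. Among 56 matched ribosomal protein genes called higher the core was in 4 (7.14%) and the AP-1 letters in 2 (3.57%). Of 4 matched genes of the pro-inflammatory cytokine list called lower, 1 held the core, 2 the AP-1 letters and 3 the SMAD box. The 1 with the core was Ptgs2, a prostaglandin enzyme gene on that list. Lysosomal genes that were not called were not counted, so the shares cannot be tied to the change in level. They describe letters in a window and not binding.

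The 6 libraries held 16868501 to 20599200 reads counted in genes in Smad3fl/fl and 18160545 to 21535222 in MyS3KO. Along the first principal component of all 24 libraries (31.1% of the variance), the treated Smad3fl/fl libraries scored 70.8 to 88.2 and the treated MyS3KO libraries 1.66 to 21.1, while the 12 libraries of the Smad2 line all scored below 0. Cytosolic ribosomal protein genes took 1.09% ± 0.0966 of reads in Smad3fl/fl and 2.02% ± 0.161 in MyS3KO (SD, n = 3 each), with 1.88% ± 0.120 in treated Smad2fl/fl. MyS3KO library 1 stood apart from libraries 2 and 3 of its group, with a chi-square per degree of freedom over genes of 65.8 and 74.8 against 13 between libraries 2 and 3. Of 14 macrophage markers all were expressed in the 6 libraries, with a summed level of 20990 to 25920 CPM (reads scaled to a common library size) in Smad3fl/fl and 26410 to 34100 CPM in MyS3KO. Of these markers 6 were called higher in MyS3KO (42.9%, against 15% of all tested genes) and none lower. The 24-library panels of the first component, the ribosomal share and a hepatocyte gene sum described further on show these differences.

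**Figure D1:**
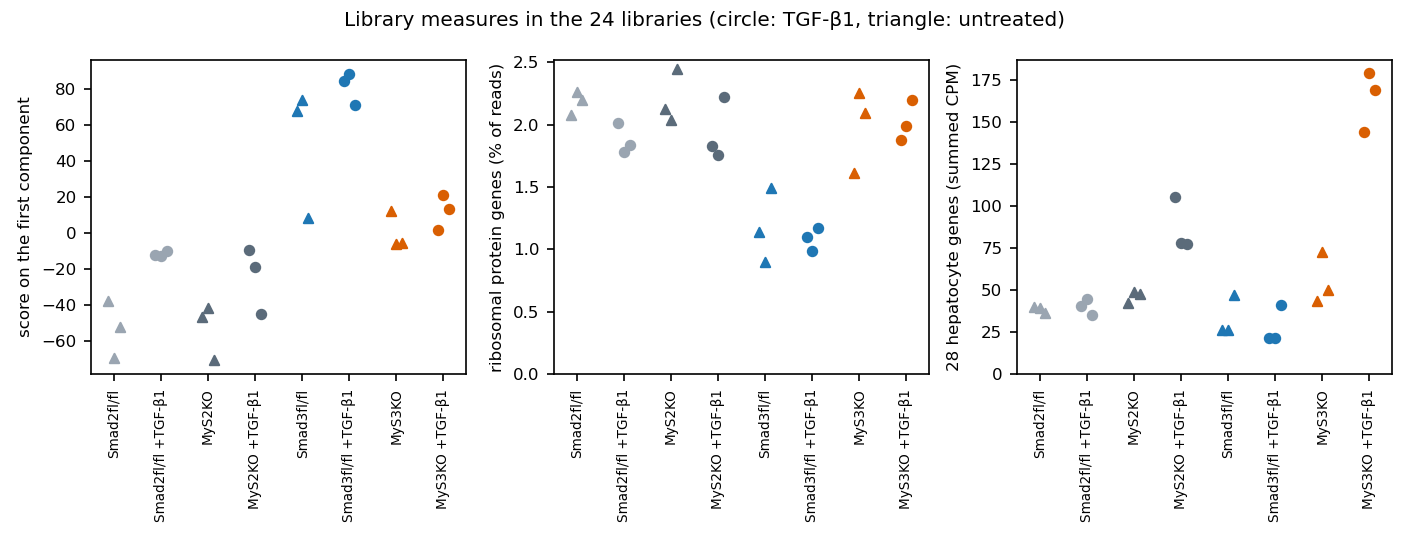
Score on the first principal component (left), share of reads in cytosolic ribosomal protein genes in percent (middle) and summed CPM of 28 hepatocyte genes (right) for each of the 24 libraries; triangles are untreated and circles TGF-β1 treated libraries. The treated Smad3fl/fl libraries score 70.8 to 88.2 on the first component, where untreated Smad3fl/fl libraries reach 73.7, and lie between 0.984% and 1.18% in ribosomal share, and the treated MyS3KO libraries have the highest hepatocyte gene sums (144 to 180 CPM).

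Smad3 itself fell in MyS3KO but its transcripts did not disappear. Its level was 404, 442 and 400 CPM in the Smad3fl/fl libraries and 289, 250 and 265 CPM in the MyS3KO libraries. All MyS3KO libraries lay below all Smad3fl/fl libraries. The log2 change was -0.63 ± 0.13 (SE), a 1.55-fold lower level (adjusted p = 0.00208, edgeR quasi-likelihood test). Counts per whole gene cannot show whether the remaining reads lack the deleted exons. In the Smad2 line under TGF-β1 the same gene had 57.2 ± 8.39 CPM in Smad2fl/fl and 49.4 ± 3.12 CPM in MyS2KO (SD, n = 3), so both groups of the Smad3 line lay above it. Smad2 (39.8, 39.2 and 42.0 CPM in Smad3fl/fl; 32.3, 35.3 and 39.1 CPM in MyS3KO) and Smad4 (45.0, 44.0 and 44.6 CPM; 49.5, 51.2 and 47.9 CPM) did not pass the test, with adjusted p of 0.253 and 0.242. Lyz2, whose locus drives the Cre, ranged from 2040 to 3753 CPM in Smad3fl/fl and from 1421 to 4519 CPM in MyS3KO (adjusted p = 0.922), so the groups overlapped.

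Across 14261 tested genes, 4017 (28.2%) were called at an adjusted p under 0.05. In MyS3KO 2141 genes were higher (15% of those tested) and 1876 lower (13.2%), and the median log2 change of all tested genes was 0.01. Of the called genes 818 rose and 932 fell by at least 2-fold, together 12.3% of the tested genes. Leaving out Smad3fl/fl library 2 gave 2219 called genes, leaving out MyS3KO library 3 gave 2570, and leaving out both libraries numbered 3 gave 2248. Without TGF-β1 the same genotypes differed in 2531 genes, and 1669 genes were called with the same direction with and without treatment. In the Smad2 line under TGF-β1, MyS2KO and Smad2fl/fl differed in 60 genes.

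**Figure D2:**
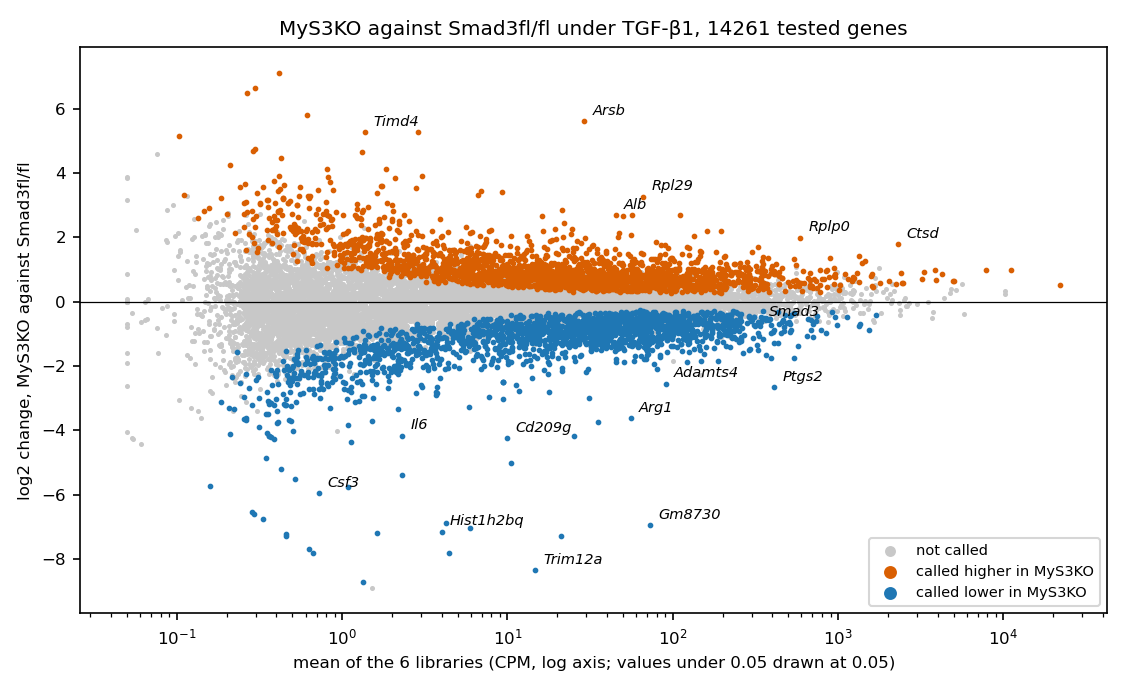
Log2 change of MyS3KO against Smad3fl/fl under TGF-β1 (vertical axis) over the mean level of the 6 libraries in CPM (horizontal log axis) for the 14261 tested genes; colour marks the 2141 genes called higher and the 1876 called lower. Arsb stands far above genes of like level, and Gm8730, Trim12a and Hist1h2bq far below.

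For most of these genes the treated Smad2fl/fl macrophages, a second floxed control given the same treatment, had a level nearer to MyS3KO than to Smad3fl/fl. This held for 1663 of the 2141 genes called higher (77.7%) and 1553 of the 1876 called lower (82.8%), against 66.9% of all tested genes. Examples with all values follow in the plot of 12 genes: for Rplp0, Ptgs2 and Adamts4 the Smad2fl/fl libraries lie near MyS3KO, for Ctsd and Glb1 between the groups, and for Timd4 near Smad3fl/fl.

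**Figure D3:**
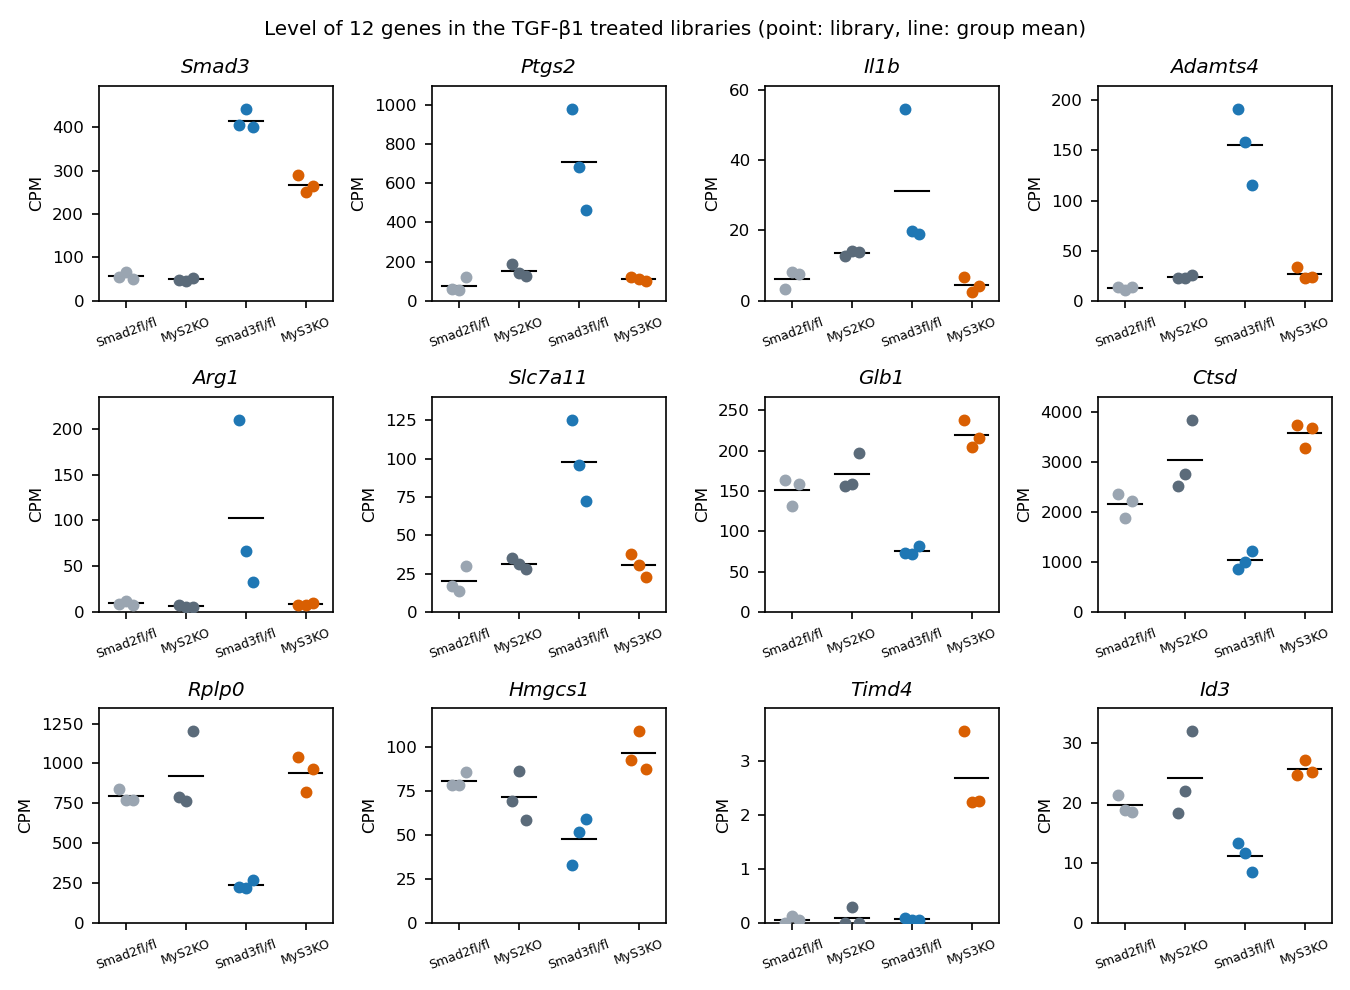
Level in CPM of 12 genes (1 panel each) in the 12 TGF-β1 treated libraries, with Smad2fl/fl and MyS2KO beside the Smad3 line; points are libraries and lines group means. Smad3fl/fl and MyS3KO do not overlap in any of the 12 panels, which show called genes.

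Of 15 tested SMAD and TGF-β receptor genes, 1 was called higher (6.67%) and 4 lower (26.7%; median log2 change -0.14), and of 24 feedback genes and SMAD targets 4 were higher (16.7%) and 3 lower (12.5%; median -0.14, against 0.01 over all tested genes). Over all tested genes 15% were higher and 13.2% lower, so the feedback genes were called about as often as the rest. Eng, the co-receptor endoglin, had 32.1, 37.5 and 36.8 CPM in Smad3fl/fl and 113, 67.2 and 70.7 CPM in MyS3KO (log2 change 1.24 ± 0.22, adjusted p = 0.000471). Acvr2a, a type II activin receptor, fell from 12.5, 11.8 and 7.5 CPM to 2.88, 4.36 and 2.64 CPM (-1.69 ± 0.35, adjusted p = 0.00174). Smad5, which signals for BMP receptors, fell from 31.1 to 33.1 CPM across Smad3fl/fl to 17.9 to 23 CPM across MyS3KO (-0.62 ± 0.14, adjusted p = 0.00312). The fourth lower gene, Bmpr1a, lost its call in 5 of the 6 fits that left out 1 library (adjusted p up to 0.136, without MyS3KO library 3).

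Of the feedback genes the 4 higher ones were 2 without MyS3KO library 3 and 1 without Smad3fl/fl library 2. Skil, whose product SnoN holds back SMAD complexes, had 566, 640 and 640 CPM in Smad3fl/fl and 335, 366 and 283 CPM in MyS3KO. Its log2 change was -0.91 ± 0.23 (adjusted p = 0.00634). Smurf1, a ubiquitin ligase that marks SMADs and receptors for breakdown, fell from 95.5 to 103 CPM to 62.1 to 71.7 CPM (-0.55 ± 0.13, adjusted p = 0.00333). Cdkn2b, a G1 kinase inhibitor induced by TGF-β in many cells, fell from 8.07, 6.69 and 5.48 CPM to 3.07, 3.22 and 4.05 CPM (-0.97 ± 0.24, adjusted p = 0.0067). In these macrophages its level was higher without treatment. Untreated Smad3fl/fl had 29.6, 16.6 and 15.8 CPM and untreated MyS3KO 5.72, 9.57 and 9.17 CPM. Smad6, an inhibitory SMAD, rose from 11.8, 11.8 and 16.4 CPM to 21.0, 26.6 and 23.8 CPM (0.83 ± 0.22, adjusted p = 0.00833; 0.0502 without Smad3fl/fl library 2). Ltbp3, which holds latent TGF-β in the matrix, had 3.26, 6.99 and 10.2 CPM in Smad3fl/fl and 35.5, 35.5 and 39.8 CPM in MyS3KO (2.45 ± 0.40, a 5.45-fold rise, adjusted p = 0.000277). Every MyS3KO library held more Ltbp3 than every Smad3fl/fl library. Tgfbi, a matrix protein gene named for its induction by TGF-β, was 424, 379 and 448 CPM in Smad3fl/fl and 607, 621 and 743 CPM in MyS3KO (0.66 ± 0.21, adjusted p = 0.0276), and its call was lost in 3 of the 6 fits without 1 library (up to 0.108, without Smad3fl/fl library 2). The fourth higher gene, Tsc22d1, lost its call in 4 of the 6 (up to 0.176). Some textbook SMAD3 targets did not pass the test: Smad7 had 48.4 to 57.5 CPM in Smad3fl/fl and 37.9 to 45.4 CPM in MyS3KO (adjusted p = 0.2), Klf10 had 211 to 283 and 154 to 238 CPM (0.139) and Pmepa1 had 27.0 to 44.5 and 26.5 to 31.6 CPM (0.524).

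Of 12 tested ligands, latency proteins and activators, 2 were called higher (16.7%) and 1 lower (8.33%, median 0.30). Of all tested genes 15% were called higher and 13.2% lower. Thbs1, whose product thrombospondin 1 can release TGF-β from its latent form, had 898, 481 and 293 CPM in Smad3fl/fl and 257, 143 and 123 CPM in MyS3KO. The 3 Smad3fl/fl libraries were spread over 3-fold, yet all lay above the MyS3KO libraries (-1.68 ± 0.44, adjusted p = 0.00794; 0.0672 without Smad3fl/fl library 1). Gdf15, a stress-induced ligand, rose from 72.1, 58.9 and 67.2 CPM to 240, 110 and 107 CPM (1.21 ± 0.28, adjusted p = 0.00409). Tgfb1 had 87.5 to 96.3 CPM in Smad3fl/fl and 133 to 164 CPM in MyS3KO (0.64 ± 0.23, adjusted p = 0.0424), a call that each of the 6 fits without 1 library lost (up to 0.147).

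Several inflammatory cytokine genes and the prostaglandin E enzyme genes Ptgs2 and Ptges were lower in MyS3KO. The pro-inflammatory cytokine list also holds Ptgs2, which is counted again among the prostaglandin genes below. Of the 12 tested genes of this list 6 were called lower and none higher (median log2 change -0.84), against 13.2% of all tested genes called lower. Ptgs2, which encodes the inducible cyclooxygenase COX-2, had 977, 684 and 462 CPM in Smad3fl/fl and 124, 112 and 98.7 CPM in MyS3KO. The lowest Smad3fl/fl library was well above the highest MyS3KO library, and the level was 6.34-fold lower (-2.67 ± 0.48, adjusted p = 0.000597). Ptges, the synthase that turns the product of COX-2 into prostaglandin E, had 51.0, 21.5 and 14.1 CPM against 6.68, 5.60 and 5.97 CPM (4.75-fold lower, adjusted p = 0.000641). Il1b had 54.5, 19.9 and 18.9 CPM against 6.74, 2.63 and 4.09 CPM (7-fold lower, adjusted p = 0.000881). Il6 had 6.34, 3.92 and 2.80 CPM against 0.429, 0.149 and 0.170 CPM (17.9-fold lower, adjusted p = 0.0026). Osm, which encodes oncostatin M, had 15.9 to 18.2 CPM against 5.45 to 11.3 CPM (2.2-fold lower, adjusted p = 0.00527). In these genes Smad3fl/fl library 1 was the highest of its group. Csf3, which encodes the granulocyte colony-stimulating factor, had 3.22, 0.704 and 0.336 CPM in Smad3fl/fl and a single read over the MyS3KO libraries, a ratio of 88.95 with a 95% counting interval of 15.6 to 3550. Il1a was the sixth (adjusted p = 0.0121; 0.0568 without Smad3fl/fl library 1).

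The neutrophil-attracting chemokines Cxcl1, Cxcl2 and Cxcl3 fell together, and they were the only genes called lower of 20 tested macrophage chemokines, where 2 were higher (median -0.05). These shares, 15% lower and 10% higher, lay near the 13.2% and 15% of all tested genes. Without MyS3KO library 1 there were 5 lower chemokine genes, and without MyS3KO library 2 or Smad3fl/fl library 3 there were 5 and 4 higher ones. Cxcl2 had 162, 110 and 94.1 CPM in Smad3fl/fl and 43.2, 24.8 and 28.3 CPM in MyS3KO (-1.93 ± 0.36, adjusted p = 0.000783). Cxcl1 had 126, 94.4 and 52.5 CPM against 34.5, 22.1 and 20.2 CPM (-1.84 ± 0.44, adjusted p = 0.00446), and Cxcl3 22.4, 5.94 and 3.30 CPM against 1.53, 1.04 and 0.767 CPM (-3.27 ± 0.81, adjusted p = 0.00607; 0.0647 without Smad3fl/fl library 1). Of 15 tested genes of alternative activation 2 were called lower (13.3%, against 13.2% of all tested genes) and none higher, with 1 to 4 lower without 1 library. Arg1, arginase 1, which belongs to that list, had 210, 66.1 and 32.3 CPM against 7.30, 7.89 and 9.76 CPM, a 12.3-fold lower level (-3.62 ± 0.67, adjusted p = 0.000694). Its Smad3fl/fl values spread over 6-fold, and none came near the MyS3KO values. Vcam1, an adhesion molecule for lymphocytes and monocytes, had 83.0, 51.1 and 32.1 CPM against 13.4, 4.07 and 3.54 CPM (8.03-fold lower, adjusted p = 0.000722). Gipr, the receptor of the gut hormone GIP, had 17.8, 5.01 and 2.52 CPM against 0, 0.0496 and 0.128 CPM (adjusted p = 0.000174).

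Of 16 tested prostaglandin and leukotriene genes, 4 were lower (25%) and 5 higher (31.2%; median 0.15), against 13.2% and 15% of all tested genes; the higher ones were 3 without Smad3fl/fl library 2. The lower ones were Ptgs2, Ptges, Ptges3 (77.5 to 97.1 against 47.8 to 66.5 CPM, adjusted p = 0.00762) and the phospholipase gene Pla2g4a, whose call was lost in 5 of the 6 fits without 1 library (adjusted p up to 0.112). The enzyme that breaks prostaglandins down, Hpgd, went the other way: it had 0.0906, 0.088 and 0.112 CPM in Smad3fl/fl and 0.797, 3.12 and 3.71 CPM in MyS3KO (4.66 ± 0.74, adjusted p = 0.000201). Alox5ap, the helper protein of leukotriene synthesis, rose from 37.7, 20.5 and 30.5 CPM to 60.9, 64.2 and 80.1 CPM (1.21 ± 0.26, adjusted p = 0.00239). Lta4h, which makes leukotriene B, rose from 1.01 to 2.97 CPM to 3.19 to 9.12 CPM (1.60 ± 0.38, adjusted p = 0.00456). Ptgs1, the constitutive cyclooxygenase, rose from 0.264 to 0.952 CPM to 1.69 to 1.96 CPM (adjusted p = 0.00969; 0.0661 without Smad3fl/fl library 2).

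Of 25 Toll-like receptor and NF-κB genes, which act upstream of cytokine genes, 6 were lower (24%) and 2 higher (8%; median -0.16), against 13.2% and 15% of all tested genes. Tlr4, the lipopolysaccharide receptor, had 104, 118 and 119 CPM in Smad3fl/fl and 51.3, 55.7 and 53.9 CPM in MyS3KO (-1.08 ± 0.22, adjusted p = 0.00133). Rel, an NF-κB subunit, had 151, 177 and 174 CPM against 95.5, 85.7 and 63.3 CPM (-1.04 ± 0.26, adjusted p = 0.00612). Nfkbiz, an inducible co-activator of NF-κB, had 407 to 469 CPM against 273 to 310 CPM (-0.56 ± 0.11, adjusted p = 0.00133). Nlrp3, the sensor of an inflammasome that matures interleukin 1β, had 274, 296 and 287 CPM against 201, 127 and 140 CPM (-0.88 ± 0.21, adjusted p = 0.0043). The count of lower Toll-like and NF-κB genes was 3 without Smad3fl/fl library 1, without Smad3fl/fl library 2, without MyS3KO library 2 and without MyS3KO library 3. The higher ones were 0 without Smad3fl/fl library 1, and 1 without Smad3fl/fl library 2, MyS3KO library 1 or MyS3KO library 2.

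Genes of matrix-degrading proteases were lower in MyS3KO more often than higher. Of 24 tested proteases and inhibitors 9 were called lower (37.5%) and 2 higher (8.33%), with a median of -0.47. Of all tested genes 13.2% were called lower and 15% higher. Adamts4, an aggrecan-cleaving protease, had 191, 159 and 115 CPM in Smad3fl/fl and 33.4, 22.8 and 23.6 CPM in MyS3KO. The groups lay far apart, with a 5.85-fold lower level (-2.55 ± 0.29, adjusted p = 7.03e-06). Adam19, a membrane-bound sheddase, had 20.1, 17.9 and 9.85 CPM against 2.94, 1.74 and 3.66 CPM (5.71-fold lower, adjusted p = 0.000363). Mmp13 had 72.7, 45.4 and 31.7 CPM against 17.8, 9.97 and 7.84 CPM (4.24-fold lower, adjusted p = 0.00454). Mmp10, stromelysin 2, had 2.81, 0.616 and 0.336 CPM in Smad3fl/fl and no read in any MyS3KO library, which against a floor of 3 reads over the group gives a level at least 26.1-fold lower. Plaur, Adam17, Adam9, Mmp8 and Mmp9 were the others called lower. Timp2, a tissue inhibitor of metalloproteases, rose from 68.5, 54.3 and 57.1 CPM to 129, 177 and 198 CPM (1.49 ± 0.28, adjusted p = 0.000739). Adam15, the other higher gene, lost its call in each of the 6 fits without 1 library (adjusted p up to 0.184). The 9 lower proteases were 5 without Smad3fl/fl library 1, without Smad3fl/fl library 2 and without MyS3KO library 3, and 6 without MyS3KO library 1.

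Most lysosomal genes tested were called higher in MyS3KO. Of 39 tested lysosomal enzymes and membrane proteins, 27 were called higher (69.2%) and 1 lower, with a median of 0.68, against 15% of all tested genes called higher. Ctsd, the aspartic protease cathepsin D, had 862, 1007 and 1216 CPM in Smad3fl/fl and 3747, 3286 and 3675 CPM in MyS3KO. Its level was 3.47-fold higher (1.80 ± 0.24, adjusted p = 3.68e-05). Glb1, the lysosomal β-galactosidase, had 72.5, 72.3 and 82.4 CPM against 238, 204 and 215 CPM (1.54 ± 0.18, adjusted p = 1.18e-05). Lamp1, a structural glycoprotein of the lysosomal membrane, had 680, 676 and 838 CPM against 2193, 1753 and 1933 CPM (1.42 ± 0.19, adjusted p = 4.12e-05). In all 3 of these genes the MyS3KO libraries lay at more than 2-fold the highest Smad3fl/fl library.

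Hexa, a subunit of β-hexosaminidase, had 431, 490 and 590 CPM against 1446, 1135 and 1265 CPM (adjusted p = 0.000179). Ppt1, which removes palmitate from proteins, had 55.7, 54.7 and 69.5 CPM against 156, 130 and 145 CPM (adjusted p = 9.27e-06). Idua, which breaks down dermatan and heparan sulfate, had 30.2 to 36.4 CPM against 53.2 to 62.8 CPM (adjusted p = 3.38e-05). The abundant Ctsb, cathepsin B, had 6959, 7111 and 8379 CPM against 16741, 13643 and 14295 CPM (0.99 ± 0.18, adjusted p = 0.000509). Psap, the precursor of the saposins that present lipids to lysosomal enzymes, had 5050, 5122 and 5852 CPM against 11687, 9603 and 10078 CPM (0.97 ± 0.19, adjusted p = 0.00115). Ctsb and Psap were among the 5 genes with the largest rise in CPM. Atp6v1h, a subunit of the proton pump, was the 1 lower member (183, 224 and 183 against 165, 131 and 128 CPM, adjusted p = 0.00941; 0.0656 without Smad3fl/fl library 2). The regulators Tfeb (17.8 to 20 against 19.1 to 23.4 CPM, adjusted p = 0.726) and Tfe3 (164 to 174 against 148 to 191 CPM, 0.898) overlapped between the groups. Leaving out 1 library left 23 to 27 lysosomal genes called higher. Treated Smad2fl/fl levels were 151 CPM for Glb1, 2154 CPM for Ctsd and 1652 CPM for Lamp1, between the groups of the Smad3 line in each case.

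**Figure D4:**
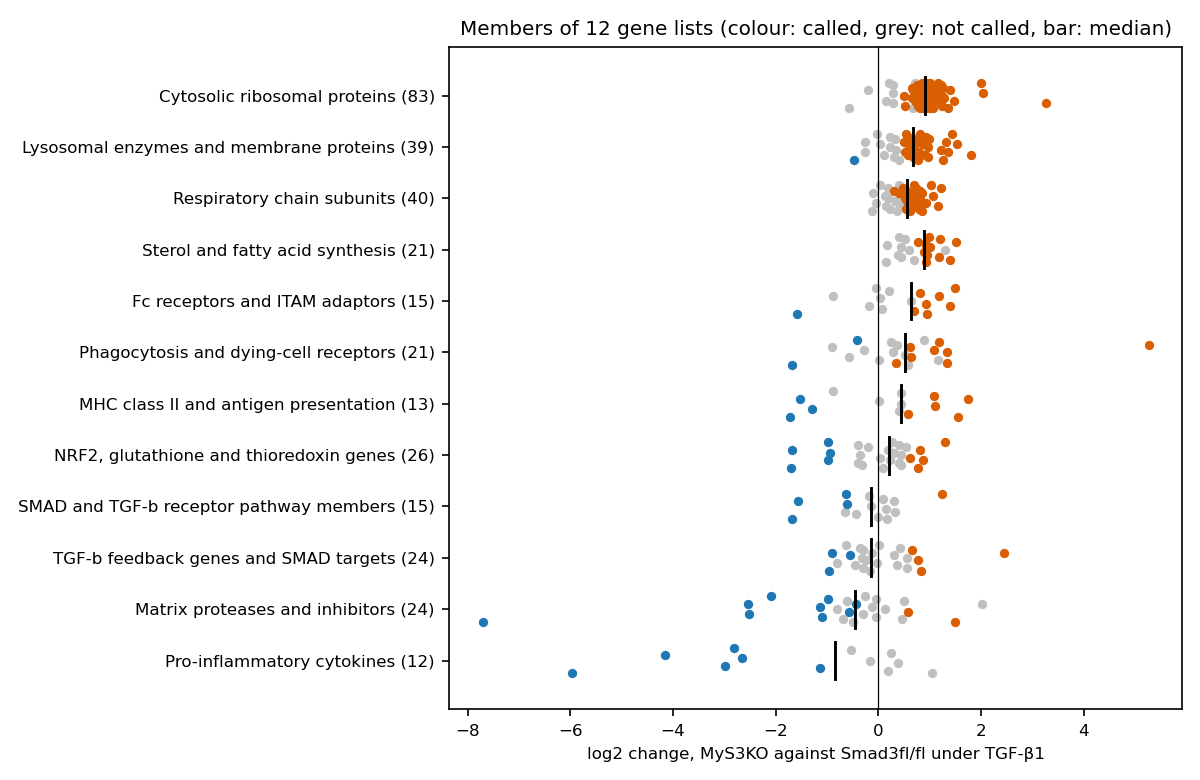
Log2 change of MyS3KO against Smad3fl/fl under TGF-β1 for the tested members of 12 gene lists (number of members in brackets); orange points were called higher, blue points lower, grey points were not called, and bars are medians. Ribosomal, lysosomal and respiratory chain genes lie mostly to the right, with medians of 0.91, 0.68 and 0.55. Genes of the cytokine list lie mostly to the left.

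Arsb, the lysosomal enzyme that removes sulfate from dermatan sulfate, was not on that list and had the largest rise of any gene at 5 CPM or more. It had 0.770, 1.01 and 1.79 CPM in Smad3fl/fl and 68.2, 49.7 and 53.9 CPM in MyS3KO, a 48.8-fold difference (5.61 ± 0.33, adjusted p = 2.38e-10). Smad2fl/fl and MyS2KO held 3.43 and 3.94 CPM, so MyS3KO stood apart from all other treated groups. Ferritin genes rose by less: Ftl1, the light chain, had 2852, 3069 and 3140 CPM against 5435, 4457 and 4473 CPM (adjusted p = 0.0122), and Fth1, the heavy chain, lost its call in 4 of the 6 fits without 1 library (0.53 ± 0.19, adjusted p = 0.0378; 0.207 without MyS3KO library 1).

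Ribosomal protein genes had the largest share of called members of the 56 gene lists, to which the hepatocyte list described further on does not belong. Of 83 tested cytosolic ribosomal protein genes 74 were called higher in MyS3KO (89.2%) and none lower, with a median of 0.91. Among all tested genes 15% were called higher. Rps4x had 190, 185 and 259 CPM in Smad3fl/fl and 552, 516 and 545 CPM in MyS3KO (1.35 ± 0.18, adjusted p = 3.68e-05). Rpl5 had 165, 154 and 184 CPM against 299, 315 and 347 CPM (0.93 ± 0.13, adjusted p = 7.44e-05), and Rps15a 88.3, 88.8 and 99.5 CPM against 177, 175 and 174 CPM (0.93 ± 0.13, adjusted p = 7.96e-05). The elongation factor gene Eef1a1 had 2647, 2370 and 2766 CPM against 5058, 4937 and 5377 CPM (0.98 ± 0.15, adjusted p = 0.000172). Rpl29 had 12.5, 10.9 and 14.0 CPM against 238, 57.1 and 63.6 CPM, with MyS3KO library 1 standing far above the other 2 (3.26 ± 0.49, adjusted p = 0.000136).

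Rplp0, which encodes a protein of the ribosomal stalk, had 223, 218 and 270 CPM against 1043, 822 and 962 CPM (1.99 ± 0.24, adjusted p = 1.58e-05). Near copies of the gene went the other way. Gm8730, a processed pseudogene on chromosome 8, had 135, 132 and 169 CPM in Smad3fl/fl and 0.674, 0.942 and 1.75 CPM in MyS3KO (adjusted p = 4.57e-11), and Gm9625, on chromosome 13, 38.5, 39.0 and 47.8 CPM against 0.0613, 0.298 and 0.384 CPM (adjusted p = 2.98e-08). Their transcripts were 98.7% and 97.4% identical to an Rplp0 transcript over 954 and 955 aligned bases, so reads can move between the 3 loci and the split is uncertain. Summed over the 3, the level was 424 CPM in Smad3fl/fl and 944 CPM in MyS3KO, a ratio of 2.23. The Smad2 line held 0.897 and 1.38 CPM of Gm8730, on the side of MyS3KO.

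Of 40 tested nuclear genes for subunits of the respiratory chain 25 were called higher (62.5%) and none lower, with a median of 0.55. Among all tested genes 15% were called higher. Uqcrfs1, the iron-sulfur subunit of complex III, had 26.6, 25.2 and 30.7 CPM against 52.5, 44.1 and 51.5 CPM (0.84 ± 0.15, adjusted p = 0.000567). Uqcrc2, of the same complex, had 3.47 to 4.58 CPM against 8.15 to 11 CPM (1.23 ± 0.22, adjusted p = 0.000623), and Sdhc, of complex II, 48.2 to 54.4 CPM against 86.6 to 95.2 CPM (0.84 ± 0.17, adjusted p = 0.00117). Atp5a1, of the ATP synthase, had 179 to 191 CPM against 302 to 339 CPM (0.81 ± 0.17, adjusted p = 0.0015). Of 15 tested transcripts made in the mitochondria none was called higher and 1 lower (median -0.11), but with the offset for GC content and length described further on 5 were higher and none lower (median 0.50, against 0.45 for the respiratory chain subunits). Without Smad3fl/fl library 2 the respiratory chain count was 14.

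Genes of sterol and fatty acid synthesis were higher where they differed. Of 21 tested 11 were called higher (52.4%) and none lower, and the smallest change was 0.15 (median 0.88). Among all tested genes 15% were called higher. Hmgcs1, an early enzyme of cholesterol synthesis, had 33.2, 51.6 and 59.0 CPM in Smad3fl/fl and 92.5, 109 and 87.7 CPM in MyS3KO (1.01 ± 0.22, adjusted p = 0.00219). Dhcr7, the last enzyme of that pathway, had 14.8, 17.1 and 21.3 CPM against 32.4, 38.6 and 49.5 CPM (1.18 ± 0.29, adjusted p = 0.00592). Acaca, which makes malonyl-CoA for fatty acids, had 11, 8.75 and 15.3 CPM against 18.3, 28.6 and 32.9 CPM (1.19 ± 0.29, adjusted p = 0.00546). The count rested on single libraries: it was 3 without Smad3fl/fl library 1, 4 without Smad3fl/fl library 2, 5 without MyS3KO library 3, 7 without MyS3KO library 2 and 15 without Smad3fl/fl library 3, with medians of 0.67 to 1.14.

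Receptors for antibody and for dying cells were higher in MyS3KO more often than lower. Of 15 tested Fc receptor and ITAM adaptor genes 7 were called higher (46.7%) and 1 lower (6.67%, median 0.63). Of all tested genes 15% were called higher and 13.2% lower. Fcgr3, an activating receptor for IgG, had 42.9, 39.0 and 60.4 CPM in Smad3fl/fl and 146, 112 and 142 CPM in MyS3KO (1.49 ± 0.23, adjusted p = 0.000174). Tyrobp, the adaptor DAP12, had 158, 133 and 180 CPM against 383, 335 and 350 CPM (1.19 ± 0.20, adjusted p = 0.00029). Pirb, an inhibitory receptor for MHC class I, had 243 to 317 CPM against 441 to 689 CPM (0.95 ± 0.17, adjusted p = 0.000528). Fcgr4, another IgG receptor, had 72.1, 97.3 and 167 CPM against 440, 202 and 244 CPM (1.4 ± 0.35, adjusted p = 0.00646). Without Smad3fl/fl library 2 the count of higher Fc receptor genes was 4.

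Of 21 genes for the uptake of dying cells 8 were higher (38.1%) and 2 lower (9.52%, median 0.52). Over all tested genes the shares were 15% and 13.2%. Without Smad3fl/fl library 1 the 8 higher genes were 5. Timd4, a receptor for the phosphatidylserine that dying cells expose, had 0.0906, 0.044 and 0.056 CPM in Smad3fl/fl and 3.56, 2.23 and 2.26 CPM in MyS3KO (5.26 ± 0.87, adjusted p = 0.000277). The gene was near the limit of detection in all 3 Smad3fl/fl libraries and in the treated Smad2 line (0.0614 and 0.0991 CPM). The bridging proteins Pros1 (15.3, 10.0 and 16.6 against 28.5, 41.2 and 36.2 CPM, adjusted p = 0.000464), Gas6 (167, 162 and 166 against 302, 337 and 403 CPM, 0.00093) and Mfge8 (5.94, 12.5 and 10.3 against 22.3, 22.1 and 20.5 CPM, 0.00478), which link phosphatidylserine to receptors, rose as well. Cd300a, an inhibitory receptor for the same lipid, had 24.2 to 47.3 CPM against 75.5 to 88.0 CPM (adjusted p = 0.00209). Mertk, the main receptor of Pros1 and Gas6 on macrophages, had 194 to 241 CPM against 239 to 317 CPM and did not pass the test (adjusted p = 0.13).

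Of 15 scavenger and C-type lectin receptors 3 were called higher and 3 lower (20% each, against 15% and 13.2% of all tested genes; median -0.29). Clec4n, dectin-2, a receptor for fungal mannans, had 29.0, 31.4 and 42.1 CPM in Smad3fl/fl and 121, 122 and 129 CPM in MyS3KO (1.86 ± 0.20, adjusted p = 3.19e-06). Scarb1, a lipoprotein receptor, had 19.1 to 28.9 CPM against 62.8 to 79.3 CPM (1.48 ± 0.27, adjusted p = 0.00057). Msr1, a receptor for modified lipoproteins, had 319, 376 and 311 CPM against 168, 139 and 145 CPM (-1.16 ± 0.31, adjusted p = 0.00884). Cd209f and Cd209g, lectins of the DC-SIGN family, nearly vanished. Cd209f had 46.9, 56.7 and 39.1 CPM against 2.88, 1.49 and 3.45 CPM (adjusted p = 2.45e-05), and Cd209g 20.6, 21.2 and 14.8 CPM against 0.858, 1.09 and 1.02 CPM (adjusted p = 2.66e-07). Treated Smad2fl/fl cells held 3.73 and 1.21 CPM of them, close to MyS3KO.

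In antigen presentation by MHC class II, the peptide-loading and processing genes and the class II chains moved in opposite directions. Of 13 tested 5 were higher (38.5%) and 3 lower (23.1%, median 0.43), against 15% and 13.2% of all tested genes. H2-DMa, a chain of the peptide-loading complex, had 3.94, 3.08 and 3.02 CPM in Smad3fl/fl and 10.2, 10.6 and 12.6 CPM in MyS3KO (1.73 ± 0.23, adjusted p = 2.93e-05), and its partner H2-DMb1 9.34 to 14.0 CPM against 21.0 to 26.1 CPM (1.09 ± 0.25, adjusted p = 0.00317). Ifi30, the thiol reductase GILT, had 7.11 to 9.24 CPM against 16.9 to 19.9 CPM (adjusted p = 0.00398), and the cathepsin gene Ctss 1777 to 2290 CPM against 2797 to 3142 CPM (0.00536). The class II chains H2-Aa (13.3, 6.20 and 4.03 against 2.51, 1.69 and 2.94 CPM, adjusted p = 0.00905) and H2-Ab1 (25.1, 13.1 and 9.46 against 5.58, 3.82 and 7.03 CPM, 0.014) and the invariant chain Cd74 (102, 57.7 and 35.6 against 29.4, 20.1 and 29.8 CPM, 0.0146) were lower, each with Smad3fl/fl library 1 highest. Without that library none of the 3 passed (0.0922, 0.11 and 0.131).

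The calls among interferon-induced and MHC class I genes rested on single libraries. Of 37 interferon-induced genes 6 were called higher (16.2%, near the 15% of all tested genes) and none lower (median 0.35), and of 17 class I genes 6 were higher (35.3%) and 2 lower (median 0.51). Without MyS3KO library 1 the higher calls were 0 and 1, without Smad3fl/fl library 1 they were again 0 and 1, and without Smad3fl/fl library 2 they were 2 and 1. Without MyS3KO library 2 or 3 there were 10 and 9 higher interferon-induced genes. Tapbp, which loads peptides on class I, had 655, 787 and 912 CPM in Smad3fl/fl and 1780, 1240 and 1213 CPM in MyS3KO (0.85 ± 0.21, adjusted p = 0.00598), and the non-classical class I gene H2-Q7, which has near copies, fell from 365, 309 and 275 CPM to 186, 115 and 129 CPM (-1.14 ± 0.20, adjusted p = 0.000403). MyS3KO library 1 was the highest of all 6 for Serpina3g, a protease inhibitor gene of activated leukocytes: 12.8, 28.1 and 47.7 CPM in Smad3fl/fl against 365, 108 and 103 CPM in MyS3KO (adjusted p = 0.00134).

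Of 26 antioxidant genes (NRF2 and glutathione) 5 were higher and 5 lower (19.2% each, median 0.21), against 15% and 13.2% of all tested genes. The lower ones included the cystine importer Slc7a11 (125, 96.1 and 72.6 CPM in Smad3fl/fl against 38, 30.8 and 23.1 CPM in MyS3KO, adjusted p = 0.00183), the glutathione reductase Gsr (163, 121 and 103 against 29.4, 38.9 and 49.9 CPM, 1.83e-05), the thioredoxin reductase Txnrd1 (588, 544 and 472 against 348, 236 and 253 CPM, 0.00028) and Gclm, which regulates the first step of glutathione synthesis (262, 190 and 161 against 89.3, 108 and 114 CPM, 0.00213). The enzymes that use these reductants to remove peroxides were among the higher ones. Prdx6 had 21.8, 21.3 and 22.8 CPM against 71.6, 45.5 and 43.9 CPM (adjusted p = 0.000199), and Gpx4, which protects membrane lipids, 94.8, 102 and 105 CPM against 167, 169 and 195 CPM (0.00211). Of 29 glycolysis and hypoxia genes 5 were lower (17.2%) and 3 higher (10.3%; median -0.04), against 13.2% and 15% of all tested genes, and with the GC and length offset 9 were lower and 1 higher; the lower ones were 3 without MyS3KO library 2, Smad3fl/fl library 1 or Smad3fl/fl library 2, and the higher ones 1 without MyS3KO library 3 or Smad3fl/fl library 2. Adm, adrenomedullin, had 34.6, 27.9 and 19.1 CPM against 6.01, 6.65 and 5.84 CPM (-2.14 ± 0.34, adjusted p = 0.000201), and Hif1a, the hypoxia factor, 167, 160 and 139 CPM against 55.4, 62.8 and 56.5 CPM (-1.41 ± 0.23, adjusted p = 0.000227).

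Of 23 CSF receptors and factors of macrophage identity 5 were higher and 5 lower (21.7% each, median 0.19). Of all tested genes 15% were higher and 13.2% lower. The lower genes of this list were 3 without MyS3KO library 2, Smad3fl/fl library 1 or Smad3fl/fl library 2. Runx1 had 115, 95.9 and 88.7 CPM in Smad3fl/fl and 49.0, 50.5 and 44.0 CPM in MyS3KO (-1.06 ± 0.14, adjusted p = 4.82e-05). Maf had 887, 850 and 866 CPM against 498, 594 and 521 CPM (-0.69 ± 0.14, adjusted p = 0.00136). Cebpa, a driver of myeloid differentiation, had 104, 90.8 and 106 CPM against 211, 206 and 221 CPM (1.08 ± 0.27, adjusted p = 0.00646), and Klf2 had 1.68, 1.06 and 2.01 CPM against 5.03, 5.75 and 8.22 CPM (2.02 ± 0.41, adjusted p = 0.00134). Spi1, the master factor PU.1, had 540 to 580 CPM against 529 to 845 CPM, and Csf1r, the receptor of CSF-1, 1780 to 2013 CPM against 2363 to 2573 CPM; neither passed (adjusted p = 0.369 and 0.128). Of 34 DNA replication genes 6 were higher (17.6%, near the 15% of all tested genes) and none lower (median 0.29). The higher ones included the replication factors Mcm10 (0.725, 0.660 and 0.895 against 4.54, 2.53 and 3.54 CPM, adjusted p = 0.00286) and E2f2 (2.27, 2.55 and 4.48 against 9.63, 12.2 and 13.5 CPM, 4.82e-05).

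Further genes with the largest changes included the complement-activating lectin Fcna (13.9, 13.8 and 17.5 CPM in Smad3fl/fl against 128, 76.1 and 90.6 CPM in MyS3KO, adjusted p = 5.57e-07), the oxysterol receptor Gpr183 (5.89, 5.19 and 4.53 against 16.7, 50.3 and 45.4 CPM, 2.66e-05), the VEGF receptor Flt1 (3.44, 4.00 and 5.76 against 46.6, 22.7 and 14.2 CPM, 9.53e-05), the epoxide hydrolase Ephx1 (13.3, 10.2 and 17.6 against 70.8, 85.3 and 102 CPM, 6.3e-05) and the calcium pump Atp2a3 (0.816, 1.01 and 1.85 against 10.1, 14.5 and 11.7 CPM, 6.42e-05). The 4 largest falls in CPM were those of Ptgs2, of the clathrin heavy chain Cltc (1616, 1834 and 1565 against 916, 1076 and 994 CPM, 0.00183), of the carboxypeptidase Cpd (1762, 1665 and 1562 against 959, 1111 and 1033 CPM, 0.00609) and of the nuclear RNA Malat1 (1815, 2190 and 2028 against 1211, 1048 and 994 CPM, 0.0292), whose call was lost in 4 of the 6 fits without 1 library (up to 0.0921). Neat1, a nuclear RNA on which paraspeckles are built, had 343, 346 and 403 CPM against 133, 182 and 155 CPM (0.00387). Of 6 tested nuclear noncoding RNAs 3 were called lower (50%, against 13.2% of all tested genes) and none higher. The 3 were Malat1, Neat1 and Xist, and 1 was called lower without MyS3KO library 3. The chaperone Hsp90aa1 fell from 492, 538 and 423 CPM to 141, 209 and 165 CPM (0.00644), while Hspa8 rose from 1572, 1659 and 1836 CPM to 3371, 2965 and 2946 CPM (0.00105).

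Some of the largest falls were near on-off differences that did not follow the genotype in every library. Trim12a and Trim5, restriction factor genes of a cluster on chromosome 7, showed this. Trim12a had 38.7 and 47.7 CPM in Smad3fl/fl libraries 1 and 2 but 0.839 CPM in library 3, against 0.0613 to 0.0992 CPM in MyS3KO (adjusted p = 0.000667). Trim5 had 10.6, 15.4 and 0.224 CPM against 0, 0 and 0.0852 CPM, 2 reads in all, a ratio of 282 with a 95% counting interval of 77.8 to 2335 (adjusted p = 0.00116). In treated Smad2fl/fl and MyS2KO cells Trim12a stood at 67.1 and 76.4 CPM. Their neighbours Trim30d (136, 178 and 101 against 61.7, 43.0 and 36.4 CPM, 0.00575) and Trim34a (53.2, 56.4 and 33.5 against 28.5, 27.0 and 21.5 CPM, 0.00855) fell by less. In the window from 103 to 108 Mb of chromosome 7, 15 of 40 tested genes were lower and 4 higher (47.5% called, against 28.2% of all). The window was set from the position of Trim5, a gene named for its large fall in these data, and Trim5 itself was counted. Its share of called genes therefore cannot stand as a separate result. Cep85, a centrosomal protein gene, also had an odd library: 87.5, 7.48 and 101 CPM in Smad3fl/fl against 5.40, 3.57 and 5.58 CPM (adjusted p = 0.000994). The histone gene Hist1h2bq had 8.43, 9.99 and 5.43 CPM in Smad3fl/fl and 3 reads over the 3 MyS3KO libraries, a ratio of 163 with a 95% counting interval of 55.3 to 791 (adjusted p = 4.78e-08), and the zinc finger gene Zfp948 had 9.47, 18.6 and 13.4 CPM against 1.35, 1.49 and 2.34 CPM (0.000818).

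Genes near Smad3 on chromosome 9 moved in both directions. Within 2 Mb, 13 of 35 tested genes were called (37.1%; 7 higher, 6 lower), within 5 Mb 32.9% of 73 and within 10 Mb 30.8% of 159, against 30.3% on the rest of the chromosome and 28.2% over all genes. Near Smad3 lie Smad6, described above, Aagab (39.9, 32.6 and 37.2 CPM in Smad3fl/fl against 63.7, 63.8 and 69.0 CPM in MyS3KO, adjusted p = 0.00164), the phosphatase inhibitor Anp32a (159, 148 and 152 against 99.6, 88.4 and 89.3 CPM, 0.000689) and the Rab regulator Dennd4a (106, 106 and 93.8 against 33.2, 40.0 and 35.9 CPM, 0.000988). No genotypes were called from these data.

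The knockout effect under TGF-β1 was next compared with the effect without it, as the difference of both differences. It passed for 3 of 14261 genes (0.021%), with 917 at an unadjusted p under 0.05: Id3, Gc and Alb. Id3, an inhibitor of helix-loop-helix factors and a target of BMP-activated SMADs, had 13.4, 11.7 and 8.45 CPM in treated Smad3fl/fl and 24.6, 27.1 and 25.2 CPM in treated MyS3KO (1.20 ± 0.31, adjusted p = 0.00833). Without treatment the genotypes differed the other way (-1.79, adjusted p = 0.00158), and the difference was 2.99 ± 0.48 (adjusted p = 0.0377). Alb, serum albumin, had 9.83, 7.57 and 19 CPM against 69.3, 93.9 and 71.5 CPM (2.69 ± 0.28, adjusted p = 2.98e-06), with a treatment difference of 2.19 ± 0.39 (adjusted p = 0.0481), and Gc, the vitamin D carrier of plasma, had 0.272, 0.352 and 0.727 CPM against 4.35, 6.15 and 4.99 CPM (3.54 ± 0.38, adjusted p = 3.52e-06), with a treatment difference of 3.00 ± 0.53 (adjusted p = 0.0481). None of these 3 treatment differences passed in all 12 fits that left out 1 library, and 7 of the 12 called no gene. The contrast took all libraries as independent. In some genes same-numbered libraries of a genotype were alike with and without treatment. Cep85 in Smad3fl/fl had 172.5, 11.35 and 145.9 CPM untreated and 87.5, 7.48 and 101 CPM treated. A pairing of treated with untreated libraries within a genotype was not tested.

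Alb and Gc belong to hepatocytes rather than macrophages. In a list of 28 hepatocyte genes drawn up after these values were seen, 26 of 27 tested genes were called higher in treated MyS3KO (median 2.81). Among all tested genes 15% were called higher. The list also held Ahsg (0.317, 0.220 and 0.616 against 4.11, 6.40 and 6.56 CPM, adjusted p = 7.03e-06) and Apob (0.181, 0.132 and 0.504 against 2.70, 3.42 and 3.54 CPM, 4.12e-05). The summed level of the 28 genes was 21.4, 21.3 and 41.5 CPM in treated Smad3fl/fl and 144, 180 and 170 CPM in treated MyS3KO. It was 77.8 to 106 CPM in treated MyS2KO and 26.1 to 72.5 CPM in the other groups. The liver hormone gene Hamp, which is also a target of BMP-activated SMADs, rose with them (0.181, 0.044 and 0.056 against 1.04, 0.942 and 0.639 CPM, 3.11 ± 0.70, adjusted p = 0.00311). The part of hepatocyte RNA in these results was not tested.

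Finally, the knockout effect under TGF-β1 was compared between the Smad3 and the Smad2 line. The difference passed for 1011 of 14261 genes (7.09%; 546 positive, 465 negative), and fits without 1 library gave 348 to 1377. It was 348 and 490 without Smad2fl/fl libraries 1 and 2, 382 and 469 without MyS2KO libraries 1 and 2, 625 and 363 without Smad3fl/fl libraries 1 and 2, and 584 and 411 without MyS3KO libraries 2 and 3. The 5 genes with the smallest p were Gm8730, Arsb, Hist1h2bq, Nxpe3 and Adamts4. Nxpe3 had 28.9, 29.3 and 27.2 CPM in Smad3fl/fl and 6.32, 7.99 and 7.75 CPM in MyS3KO (-1.95 ± 0.17, adjusted p = 3e-07), with 5.91 and 6.92 CPM in Smad2fl/fl and MyS2KO, so Smad3fl/fl was the group that stood apart. For Adamts4 the Smad2 line held 12.9 and 23.9 CPM, also on the side of MyS3KO. For Hist1h2bq it held 9.78 and 7.16 CPM, on the side of Smad3fl/fl. Gm6969 is a processed pseudogene on chromosome 12 that is 98.0% identical over 342 bases to Cox7a2l. Reads can move between both loci, so the split is uncertain. Among treated groups reads of Gm6969 were counted almost only in the Smad3 line. It had 19.2, 18.6 and 26.6 CPM in Smad3fl/fl, 105, 75.4 and 89.9 CPM in MyS3KO, and 0.589 and 0.495 CPM in the Smad2 line. Cox7a2l itself had 61.0 to 85.2 CPM in Smad3fl/fl and 130 to 155 CPM in MyS3KO (adjusted p = 0.00157). In the treated Smad2 line Cox7a2l had 178 to 237 CPM.

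Many markers of other cells were low, but not in every list. Dendritic cell markers summed to 814 to 1177 CPM in Smad3fl/fl and 993 to 1636 CPM in MyS3KO. Most of this was Bst2 (790 to 1146 and 970 to 1593 CPM), and 7 of the 12 were under 1 CPM. Monocyte markers summed to 95.9 to 133 and 119 to 228 CPM. Erythroid and megakaryocyte markers summed to 77.9 to 158 and 152 to 181 CPM, mostly Pf4 (68.6 to 149 and 143 to 172 CPM). No mast cell or basophil marker of 12 was tested and all were under 1 CPM, as were all 13 fibroblast markers; 8 of 15 neutrophil markers were under 1 CPM, with a summed level of 14.9 to 40.0 CPM in Smad3fl/fl and 24.8 to 32.7 CPM in MyS3KO. T, B and NK cell markers summed to 34.5 to 74.9 CPM and 71.1 to 95.5 CPM, with 13 of 17 under 1 CPM in all 6 libraries, and endothelial markers to 117 to 139 CPM and 134 to 166 CPM. Among the macrophage markers Mpeg1, which encodes perforin-2, had 2320, 2299 and 2742 CPM in Smad3fl/fl and 4285, 3853 and 3892 CPM in MyS3KO (0.71 ± 0.15, adjusted p = 0.00193), Cd68 had 868 to 982 CPM against 1358 to 1743 CPM (0.71 ± 0.15, adjusted p = 0.0024), and Adgre1, which encodes F4/80, had 8281 to 10434 CPM against 9739 to 12694 CPM (adjusted p = 0.237). The part of these cells in the results was not tested.

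The direction of change moved with base composition. With the tested genes ranked by the GC content of their longest transcript and cut into 5 classes of equal size, 28.9% of the class with the lowest GC content were called lower in MyS3KO and 4.98% higher (median -0.54), and in the class with the highest GC content 5.79% were lower and 19.9% higher (median 0.21). Of the class with the longest transcripts 23.9% were lower and 10.2% higher. Noncoding classes (long intergenic, antisense, TEC and processed transcripts) held 251 lower and 27 higher genes of 1638 tested. Protein-coding genes held 1553 lower and 2046 higher of 11780 tested. Of all tested genes 13.2% were lower and 15% higher, so the noncoding classes differed mainly in how few were higher. With an offset per library for GC content and length, added after the data were seen, 3878 genes were called, of which 2958 were among those called without it with the same direction, and 13.1% to 14.5% of a GC class were higher and 12.7% to 14.1% lower. With the offset 75 ribosomal protein genes, 26 lysosomal genes, 20 respiratory chain subunits and 12 sterol synthesis genes were called higher. Called lower with it were 6 genes of the cytokine list and 9 proteases. Other lists moved with it: the genes called higher went from 6 to 2 among interferon-induced genes, from 6 to 3 for MHC class I, from 8 to 5 among dying-cell receptors, from 4 to 2 among TGF-β feedback genes and from 3 to 1 for glycolysis and hypoxia, while they went from 2 to 4 among chemokines and from 0 to 5 among mitochondrial transcripts. The glycolysis and hypoxia genes called lower went from 5 to 9, the SMAD and receptor genes called lower from 4 to 2, and CSF receptors and identity factors from 5 to 3 in each direction. Of the genes named here, Smad5, Skil, Tgfbi, Tsc22d1, Bmpr1a, Tgfb1, Adam15, Fth1 and Malat1 lost their call with the offset, and Atp6v1h changed sign (0.26, adjusted p = 0.42). Why the direction moved with base composition was not tested.

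**Figure D5:**
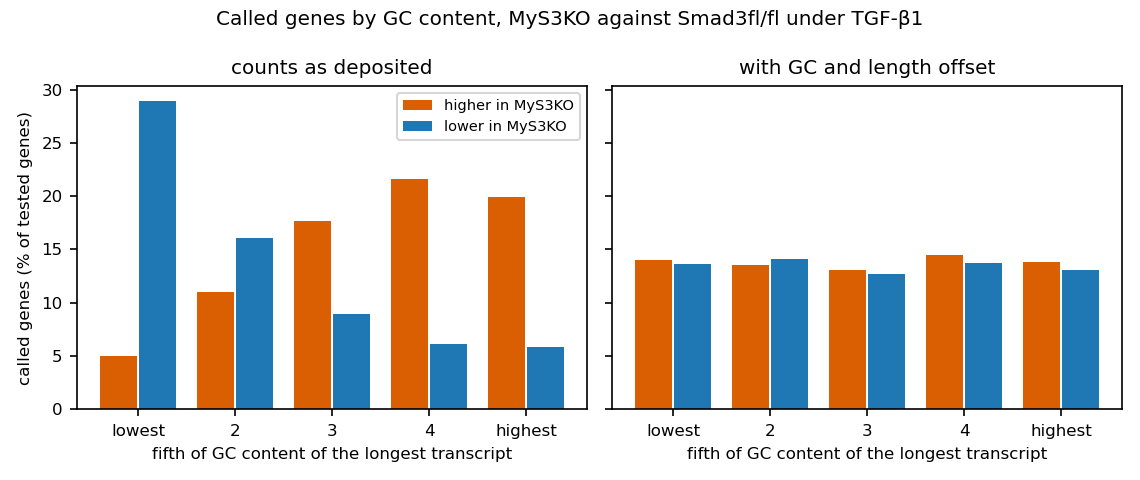
Share of tested genes called higher (orange) and lower (blue) in MyS3KO, in percent, in 5 equal classes of GC content of the longest transcript (the lowest at the left), for the counts as deposited (left) and with a GC and length offset (right). Without the offset the lower share runs from 28.9% in the lowest class to 5.79% in the highest; with it, both shares stay between 12.7% and 14.5%.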

How the data were processed

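RNA was sequenced from 24 macrophage libraries, 3 in each of 8 groups, and the authors deposited whole-number read counts per Ensembl gene and an FPKM table. The submitters' processing notes name TopHat2 2.0.9, HTSeq 0.6.1 and Cufflinks 2.1.1 and the builds mm10 and GRCm38.p6; neither settings nor use of strand was stated, so overlapping and antisense genes cannot be told apart. The authors' FPKM values were read for Smad3 only (group means of 322 in treated Smad3fl/fl and 192 in treated MyS3KO).

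The deposited counts of all 24 libraries were fitted in 1 model with a mean per group in edgeR 4.0.16 (R 4.3.3, TMM scaling, filterByExpr, quasi-likelihood test). Adjusted p-values are Benjamini-Hochberg over the 14261 genes that passed the filter, with calls made below 0.05. Log2 changes carry the standard error of the fit, and CPM use TMM library sizes. The treatment difference and the line difference are contrasts of the same fit. A gene is nearer to a group by the difference of log2 mean CPM with a pseudocount of 0.5. Alternatives used DESeq2 1.42.0 and, for a GC and length offset added after the data were seen, mgcv 1.9.3.

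Named genes are Smad2, Smad3, Smad4 and Lyz2, the 12 largest called rises and falls at 5 CPM or more with no overlap (symbols of Gm or Rik form left out), the 5 largest rises and falls in CPM, up to 4 called members of each list in each direction by p, called genes near Smad3, and the 5 smallest p of both difference contrasts; not all are printed. Csf3, Il1a, Lamp1, Mfge8, Gm9625, Gm6969, Cox7a2l and the uncalled genes other than Smad2, Smad4 and Lyz2 fall outside this rule and were chosen after their values were seen. Members and lists were chosen with earlier results of these data known.

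The test was tried on simulated counts of 13738 genes for the main comparison: 60% of 100 genes changed by 1 and 98% of 100 genes changed by 2 on the log2 scale were recovered, with 13 false calls (7.6% of calls). No other gene was changed in the simulation, while 28.2% of tested genes were called in the data. The recovered and false shares therefore cannot be carried over to the data. No 2 libraries of the compared groups held the same values. Counting intervals (95%) and the floor of 3 reads cover counting error only.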

Additional observations from a re-analysis of the deposited data

Results flagged for a closer look

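By an interaction contrast of edgeR's quasi-likelihood fit, the knockout effect differed with and without TGF-β1 for Id3 (2.99 on the log2 scale), Gc (3.00) and Alb (2.19). None of the 3 was called with only the libraries compared, or in every fit that left out 1 library. With RLE size factors only Id3 was called. Gc and Alb are hepatocyte genes. In a list of hepatocyte genes drawn up after these values were seen, 26 of 27 tested were called higher in treated MyS3KO. Among all tested genes 15% were called higher.

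The knockout effect under TGF-β1 differed between the Smad3 and the Smad2 line in 1011 genes by the same kind of contrast. The 5 with the smallest p were Gm8730 (-7.58), Arsb (5.40), Hist1h2bq (-6.70), Nxpe3 (-2.18) and Adamts4 (-3.43). Reads of Gm8730 can be split with Rplp0.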

How the results depend on the processing

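Of the 142 called named genes, 142 kept their call with DESeq2, with no filter on low counts and with TMM factors computed without ribosomal and mitochondrial genes, 140 with RLE size factors, 130 to 139 without 1 library, 127 without both libraries numbered 3 and 132 with the GC and length offset. Smad3 was called in every one of these fits, with log2 changes of -0.59 to -0.81. The number of genes called between MyS3KO and Smad3fl/fl ranged from 2219 to 3318 without 1 library and was 2248 without both libraries numbered 3. The treatment difference was called for 1 gene with RLE size factors, 161 with no filter, 15 with DESeq2, 0 with only the libraries compared and 0 to 6 without 1 library. The line difference was called for 1908 genes with no filter, 1687 with DESeq2, 2332 with only the libraries compared and 348 to 1377 without 1 library. The causes were not tested. With the offset Smad2 changed sign to 0.11, Smad4 to -0.006, Atp6v1h to 0.26, Spi1 to -0.061 and Tfeb to -0.15. Lyz2 was 0.23, 0.12 and 0.24 without MyS3KO library 2, MyS3KO library 3 and Smad3fl/fl library 3 (-0.695 to 0.238 over all 6), and 0.45 without both libraries numbered 3. Pmepa1 ranged from -0.385 to 0.027 without 1 library and Tfe3 from -0.133 to 0.04, with 0.074 without both numbered 3. With the library number as a replicate block, 3943 genes were called (3734 of them shared, with the same direction), 4 in the treatment difference and 1143 in the line difference, and 1 named gene, Tsc22d1, lost its call. Same-numbered treated Smad3fl/fl and MyS3KO libraries correlated at -0.20, -0.01 and -0.09, taken as deviations from their group means. With so few libraries these values cannot show whether the numbers pair them. Pairing of treated with untreated libraries of a genotype was not tested. In simulated counts with 3 libraries a group, changes of 1 on the log2 scale were missed in part. Few genes were changed there, against 28.2% called in the data, so the missed share cannot be carried over.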
